A study of Mus musculus with 4 samples.

Results

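The axon guidance genes described here are the ligands and receptors of the ephrin, semaphorin, Slit and netrin systems. They were taken by gene symbol from the families Epha, Ephb, Efna, Efnb, Sema3 to Sema7, Plxna to Plxnd, Nrp1, Nrp2, Slit1 to Slit3, Robo1 to Robo4, Ntn1, Ntn3, Ntn4, Unc5a to Unc5d, Dcc and Neo1, from rows of the expression table that carry 1 gene symbol. This gave 66 genes out of 20707 and 77 rows out of 27090, and a gene with several rows was represented by its brightest row. RefSeq lists 69 genes in these families. Ephb6 and Nrp2 share their rows with another symbol and Ephb2 has no row by that name, so none of these 3 was analysed. The members comprise 34 ligands and 32 receptors.

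The samples were hippocampi of male C57BL/6 mice aged 3 months that had received no treatment, 2 from Wildtype animals and 2 from animals labelled Malat1 Knock-out, each on its own mouse exon array. Malat1 is an abundant nuclear long noncoding RNA, and the series asks how its loss affects gene expression. The labels do not say which part of the gene was deleted, and the wildtype and knockout animals came as littermate pairs. Although a label speaks of neurons, the protocols describe dissected tissue, so fewer cells of a type and less RNA per cell cannot be told apart in any value below.

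Guidance cues steer the growing axon through its growth cone, some by attraction and some by repulsion. Ephrins are membrane-bound ligands of the Eph receptor tyrosine kinases, semaphorins act through plexins with neuropilins as co-receptors for most secreted forms, Slits are the ligands of Robo receptors, and netrins bind Dcc, Neo1 and the Unc5 receptors. In the adult hippocampus many of these molecules remain at synapses, where Eph receptors and semaphorins are known for shaping dendritic spines and mossy fibre connections.

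Promoter sequences are shown for 3 members picked from both sides of 0 in the differences reported below. Sema3c (-0.14) had lower signal in the knockout and a single row, while Sema5a (-0.21) and Sema3d (-0.17) lay further below 0. Epha8 and Ntn3 had the largest positive differences. Each sequence covers the 300 bases around the gene's start in RefSeq (GRCm38.p6), most of them upstream, 5′ to 3′ along the gene, and capitals mark the dinucleotide CG.
Sema3c, chr5:17574566-17574865, + strand: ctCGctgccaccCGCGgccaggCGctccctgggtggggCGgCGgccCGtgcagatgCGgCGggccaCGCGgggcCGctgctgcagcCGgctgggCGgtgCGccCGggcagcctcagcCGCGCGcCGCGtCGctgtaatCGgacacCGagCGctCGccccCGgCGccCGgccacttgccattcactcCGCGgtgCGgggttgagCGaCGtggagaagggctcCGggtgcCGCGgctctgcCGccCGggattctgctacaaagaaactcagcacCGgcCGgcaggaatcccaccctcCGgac
Epha8, chr4:136956767-136957066, - strand: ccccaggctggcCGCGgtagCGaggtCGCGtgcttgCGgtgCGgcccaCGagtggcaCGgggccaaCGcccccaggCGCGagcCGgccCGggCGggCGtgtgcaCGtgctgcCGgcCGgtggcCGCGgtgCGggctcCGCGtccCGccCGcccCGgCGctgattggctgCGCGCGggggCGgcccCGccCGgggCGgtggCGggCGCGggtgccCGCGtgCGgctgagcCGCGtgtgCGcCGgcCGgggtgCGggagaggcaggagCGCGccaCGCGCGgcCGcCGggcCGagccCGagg
Ntn3, chr17:24209338-24209637, - strand: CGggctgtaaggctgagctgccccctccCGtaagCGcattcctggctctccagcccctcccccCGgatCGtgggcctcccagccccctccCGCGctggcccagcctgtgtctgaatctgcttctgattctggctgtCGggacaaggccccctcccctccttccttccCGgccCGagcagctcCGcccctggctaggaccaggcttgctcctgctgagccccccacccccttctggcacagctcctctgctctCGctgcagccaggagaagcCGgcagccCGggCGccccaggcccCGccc
The Sema3c promoter holds 42 CG dinucleotides and that of Epha8 holds 56, the highest count among the 72 promoters listed for 56 of the members, while the Ntn3 promoter holds 16. GC content was 75.7% for Sema3c, 84.3% for Epha8 and 71.3% for Ntn3. A CG-dense promoter was thus found in 1 picked gene on each side of 0, Sema3c and Epha8, which says nothing of the members as a set. Over all member promoters the median was 18.5 CG dinucleotides and 64.2% GC, against 18 and 59.7% for the 15435 promoters of all genes tested. The motif TATAAA, searched on both strands, was found in none of these 3 windows and in 2 of the 72 member promoters (2.78%), against 8.38% of the promoters of all genes tested. At least 1 CG was found in 100% of member promoters and in 98.4% of those of all genes tested.

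Log2 signal ranged from 4.16 to 14.26 over the 265511 rows, and the 4 array medians lay between 5.59 and 5.63. Malat1 signal, the check of the labels, was 11.19 and 11.25 in wildtype and 8.53 and 8.70 in knockout animals. Over all genes tested, the median absolute difference was 0.081 between the knockout arrays and 0.057 between the wildtype arrays. All 10 markers of hippocampal excitatory neurons lay above the filter level of 5.70 on the log2 scale, the level under which a gene was not tested. Markers of interneurons (9 of 9), oligodendrocytes (7 of 7 with a row), microglia (5 of 5) and endothelium with mural cells (7 of 7) did too. So did those of oligodendrocyte precursors (4 of 4), adult neurogenesis (5 of 5) and meninges (3 of 3). The astrocyte marker Gja1 (4 of 5 with a row above) and the choroid plexus marker Otx2 (3 of 4 above) lay under it. Of all 20707 genes, 15995 lay above the same level.

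Axon guidance genes differed little between the genotypes. Of the 66 members, 64 lay above the filter and were tested together with all other genes, 15995 in all. None passed an adjusted p of 0.05 (limma, Benjamini-Hochberg over all genes), and every member had an adjusted p of 1; over all genes 0.00625% passed, which is Malat1 alone. Without adjustment, 2 of the 64 members (3.13%), Sema5a and Sema3c, had a limma p under 0.05, both with the lower signal in the knockout. Over all genes 3.86% did, 1.98% with lower and 1.88% with higher signal, so the share of members is near the background. The median log2 difference between knockout and wildtype was 0.011 over the members and -0.0011 over all genes tested, and 37 members stood above 0 against 49.2% of all genes. The median absolute difference was 0.039 for members and 0.045 for all genes.

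The precision of 2 arrays per group still bounds most differences in array signal. These are not bounds on RNA, because array signal compresses true ratios and the filter is a percentile, not a detection level. For 63 of the 64 members the 95% interval of the brightest row excluded a 1.5-fold difference either way, as it did for 95.9% of all genes. For 57 members it excluded a 1.25-fold difference, against 82.4% of all genes. The bound does not hold for every row of these genes. Dimmer rows of Unc5d (log2 interval -0.77 to -0.17), Epha2 (0.0080 to 0.71) and Nrp1 (-0.60 to 0.07) did not exclude a 1.5-fold difference. Both knockout arrays lay above both wildtype arrays for 9 members (14.1%), against 14.7% of all genes. Both lay below for 3 members (4.69%), against 14.3% of all genes. Among the 34 ligands, 33 were tested, with a median difference of 0.022 and 22 above 0. Among the 32 receptors, 31 were tested, with a median of -0.00055 and 15 above 0. The 2 members under the filter were the receptor gene Epha1, at 5.32 and 5.34 in wildtype and 5.36 and 5.42 in knockout arrays, and the repellent Sema3a, at 5.67 and 5.64 against 5.67 and 5.72. The members just inside the filter were Ntn4 and Efna5, with means between 5.71 and 5.80 in each genotype.

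**Figure D1:**
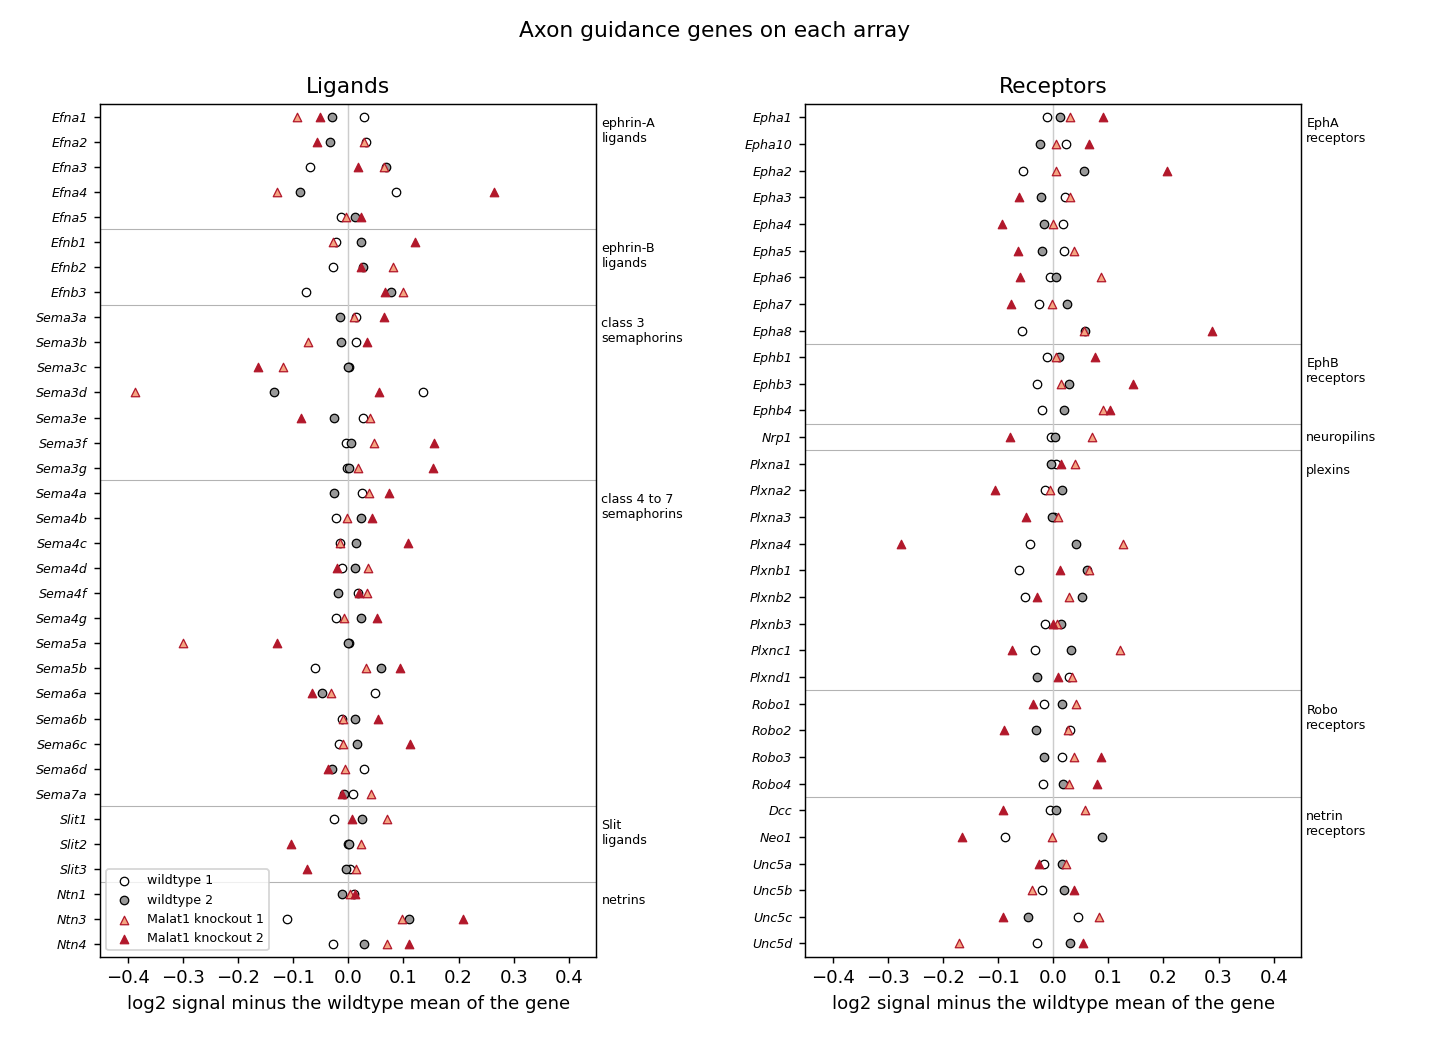
Log2 signal of the 66 axon guidance genes on each of the 4 arrays, given as the difference from the gene's wildtype mean, with ligands on the left and receptors on the right, grouped by family. Circles are wildtype and triangles are Malat1 knockout arrays. The 2 triangles of a gene often lie on different sides of its circles, as for Plxna4, while both lie to the left for Sema3c and Sema5a.

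The ephrin-A ligands, which are tethered by a lipid anchor and bind mainly EphA receptors, had a median difference of 0.0095 over 5 genes. Efna1 signal was 6.70 and 6.65 in wildtype and 6.58 and 6.62 in knockout arrays. Both knockout values lay below both wildtype values, at a difference of -0.07 (95% interval -0.21 to 0.07). Efna4 signal was 6.58 and 6.40 in wildtype and 6.36 and 6.76 in knockout arrays, so the knockout arrays took the lowest and the highest place and the difference of 0.07 had an interval of -0.31 to 0.44. Efna3 lay at 8.92 and 9.06 against 9.06 and 9.01, with overlapping groups. Efna2 (-0.01) and Efna5 (0.0095) stood nearest 0.

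Among the EphA receptors, 8 of 9 genes were tested, 4 above and 4 below 0. Epha8 signal was 6.51 and 6.63 in wildtype and 6.62 and 6.86 in knockout arrays. Knockout replicate 2 was the high array and replicate 1 lay at the level of wildtype replicate 2, so the groups overlapped, at a difference of 0.17 (95% interval -0.07 to 0.42). Epha2 had the same order of arrays, with 6.22 and 6.33 against 6.28 and 6.48 and a difference of 0.11 (-0.12 to 0.33). Epha4, a receptor for ephrins of both classes that is known for its role in spines of the adult hippocampus, was at 7.08 and 7.05 in wildtype and 7.07 and 6.97 in knockout arrays. Its difference of -0.05 (-0.20 to 0.10) came from knockout replicate 2. Epha3, Epha5, Epha6, Epha7 and Epha10 lay between -0.04 and 0.04, all with overlapping groups.

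Ephrin-B ligands, which span the membrane and can signal backwards into their own cell, were all above 0 in difference. Efnb3 signal was 8.25 and 8.40 in wildtype and 8.42 and 8.39 in knockout arrays, a difference of 0.08 (95% interval -0.10 to 0.26) with overlapping groups. Efnb2 was at 6.67 and 6.72 against 6.78 and 6.72 (0.05, -0.09 to 0.20), and Efnb1 stood at 0.05. The 3 EphB receptors tested were likewise above 0. Ephb4, known as a receptor of venous endothelium, was at 6.13 and 6.17 in wildtype and 6.24 and 6.25 in knockout arrays. Both knockout arrays lay above both wildtype arrays, at a difference of 0.10 (-0.03 to 0.23). Ephb3 was at 6.40 and 6.45 against 6.44 and 6.57 (0.08, -0.09 to 0.25) and Ephb1 at 6.14 and 6.16 against 6.15 and 6.22 (0.04, -0.10 to 0.18), with overlapping groups in both cases.

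Secreted class 3 semaphorins, which repel or attract axons through neuropilin and plexin complexes, held members with the knockout arrays on either side of the wildtype arrays. Sema3c signal was 6.09 and 6.09 in wildtype and 5.97 and 5.93 in knockout arrays. Both knockout arrays lay below both wildtype arrays, by 0.14 on the log2 scale, a 1.10-fold difference (-0.14 ± 0.05 SE, 95% interval -0.27 to -0.0090, limma adjusted p = 1). The difference was between -0.16 and -0.12 with any 1 array left out. Sema3d was at 6.82 and 6.55 in wildtype and 6.30 and 6.74 in knockout arrays, the widest spread within each genotype among the tested members, and its difference of -0.17 had an interval of -0.61 to 0.27. Sema3f was at 6.24 and 6.25 against 6.29 and 6.40 (0.10, -0.05 to 0.26) and Sema3g, known from vascular cells, at 6.35 and 6.36 against 6.37 and 6.51 (0.09, -0.08 to 0.25). In both the knockout arrays lay above the wildtype arrays, with knockout replicate 2 farther away. Sema3b and Sema3e stood at -0.02 each.

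The membrane-bound and other semaphorins of classes 4 to 7 had a median difference of 0.022, with 10 of 13 above 0. Sema5a, which carries thrombospondin repeats and is known to limit synapse number in dentate granule cells, had the largest difference of all members. Its brightest row read 9.02 and 9.02 in wildtype and 8.72 and 8.89 in knockout arrays. Both knockout arrays were lower, by 0.21 on the log2 scale or 1.16-fold (-0.21 ± 0.07 SE, 95% interval -0.40 to -0.03, limma adjusted p = 1). A further, dimmer row under the same name read 6.76 and 6.76 against 6.72 and 6.73, a difference of -0.03 (95% interval -0.16 to 0.10). Of the 20 named rows nearest in number to the brightest row, 16 carry genes of chromosome 2, whereas Sema5a lies on chromosome 15, as do the genes around the dimmer row. For the other 76 member rows, most neighbours lay on the gene's own chromosome. Whether the brightest row measures Sema5a was not tested, and with the dimmer row in its place 1 member, Sema3c, had an unadjusted p under 0.05.

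Sema5b was at 6.67 and 6.79 in wildtype and 6.76 and 6.82 in knockout arrays (0.06, 95% interval -0.10 to 0.23). Sema4a was at 7.19 and 7.14 against 7.20 and 7.24, with the knockout arrays above the wildtype arrays by 0.06 (-0.08 to 0.19). Sema4f, whose knockout arrays also lay above, stood at 0.03. The oligodendrocyte-associated plexin-B1 ligand Sema4d was at 7.42 and 7.45 against 7.47 and 7.42 (0.0077), and the lipid-anchored Sema7a at 8.21 and 8.19 against 8.24 and 8.19 (0.01). Neither differed beyond the spread of its arrays. The remaining genes of these classes (Sema4b, Sema4c, Sema4g and Sema6a to Sema6d) lay between -0.05 and 0.05.

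The receptors of the semaphorins differed from wildtype by less than 0.1 on the log2 scale. Nrp1, the co-receptor of Sema3a, was at 7.01 and 7.01 in wildtype and 7.08 and 6.93 in knockout arrays, so that the knockout arrays lay on opposite sides and the difference was -0.0040 (95% interval -0.18 to 0.17). The 9 plexins had a median difference of 0.0040, with 5 above 0. Plxna4, a partner of neuropilins, was at 8.47 and 8.56 against 8.64 and 8.24. The knockout arrays again took the highest and the lowest place, with a difference of -0.08 (-0.43 to 0.28) that was 0.13 without knockout replicate 2. Plxna2, a receptor of Sema6a and Sema6b known from mossy fibre targeting, was at 7.20 and 7.23 against 7.21 and 7.11 (-0.06, -0.21 to 0.10). Plxnb1 was at 7.55 and 7.67 against 7.67 and 7.62 (0.04, -0.13 to 0.21). Plxna1, at 9.17 and 9.16 against 9.21 and 9.18, was the only plexin with both knockout arrays on 1 side, at a difference of 0.03.

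Slit ligands and Robo receptors showed small differences of both signs. Slit1 was at 8.17 and 8.22 in wildtype and 8.26 and 8.20 in knockout arrays (0.04, 95% interval -0.10 to 0.18). Slit2 was at 6.59 and 6.59 against 6.61 and 6.49 (-0.04, -0.20 to 0.12), and Slit3 stood at -0.03. In Slit2 and Slit3 knockout replicate 2 was the low array. Robo3, a divergent family member known from commissural axons, was at 6.39 and 6.36 against 6.41 and 6.46 (0.06, -0.07 to 0.20). Robo4, an endothelial member, was at 6.10 and 6.14 against 6.15 and 6.20 (0.05, -0.08 to 0.19). The knockout arrays lay above the wildtype arrays for Robo3 and Robo4. Robo1 (0.0027) and Robo2 (-0.03), the Slit receptors of forebrain axons, had overlapping groups.

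The 3 netrins, secreted laminin-like cues, were all above 0. Ntn3 was at 7.13 and 7.35 in wildtype and 7.34 and 7.45 in knockout arrays, so the groups overlapped and the difference was 0.15 (95% interval -0.08 to 0.39). Ntn4 was at 5.68 and 5.74 against 5.78 and 5.82, with the knockout arrays above the wildtype arrays by 0.09 (-0.05 to 0.23). Its wildtype mean of 5.71 lay just above the filter level. Ntn1 was at 6.02 and 6.00 against 6.01 and 6.02, a difference of 0.0074 (-0.12 to 0.14). All 6 netrin receptors stood below 0, with a median of -0.0098. Against the wildtype mean their median was 0.011 in knockout replicate 1 and -0.058 in knockout replicate 2. Neo1, which also binds repulsive guidance molecules, was at 7.77 and 7.95 in wildtype and 7.86 and 7.70 in knockout arrays (-0.08, -0.32 to 0.15). Unc5d was at 7.73 and 7.79 against 7.59 and 7.82 (-0.06, -0.29 to 0.17). Dcc, the attractive netrin receptor, was at 6.58 and 6.59 against 6.65 and 6.50 (-0.02), and Unc5a (-0.0012), Unc5b (-0.00068) and Unc5c (-0.0037) stood nearest 0. None of the 6 had both knockout arrays on 1 side of both wildtype arrays.

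**Figure D2:**
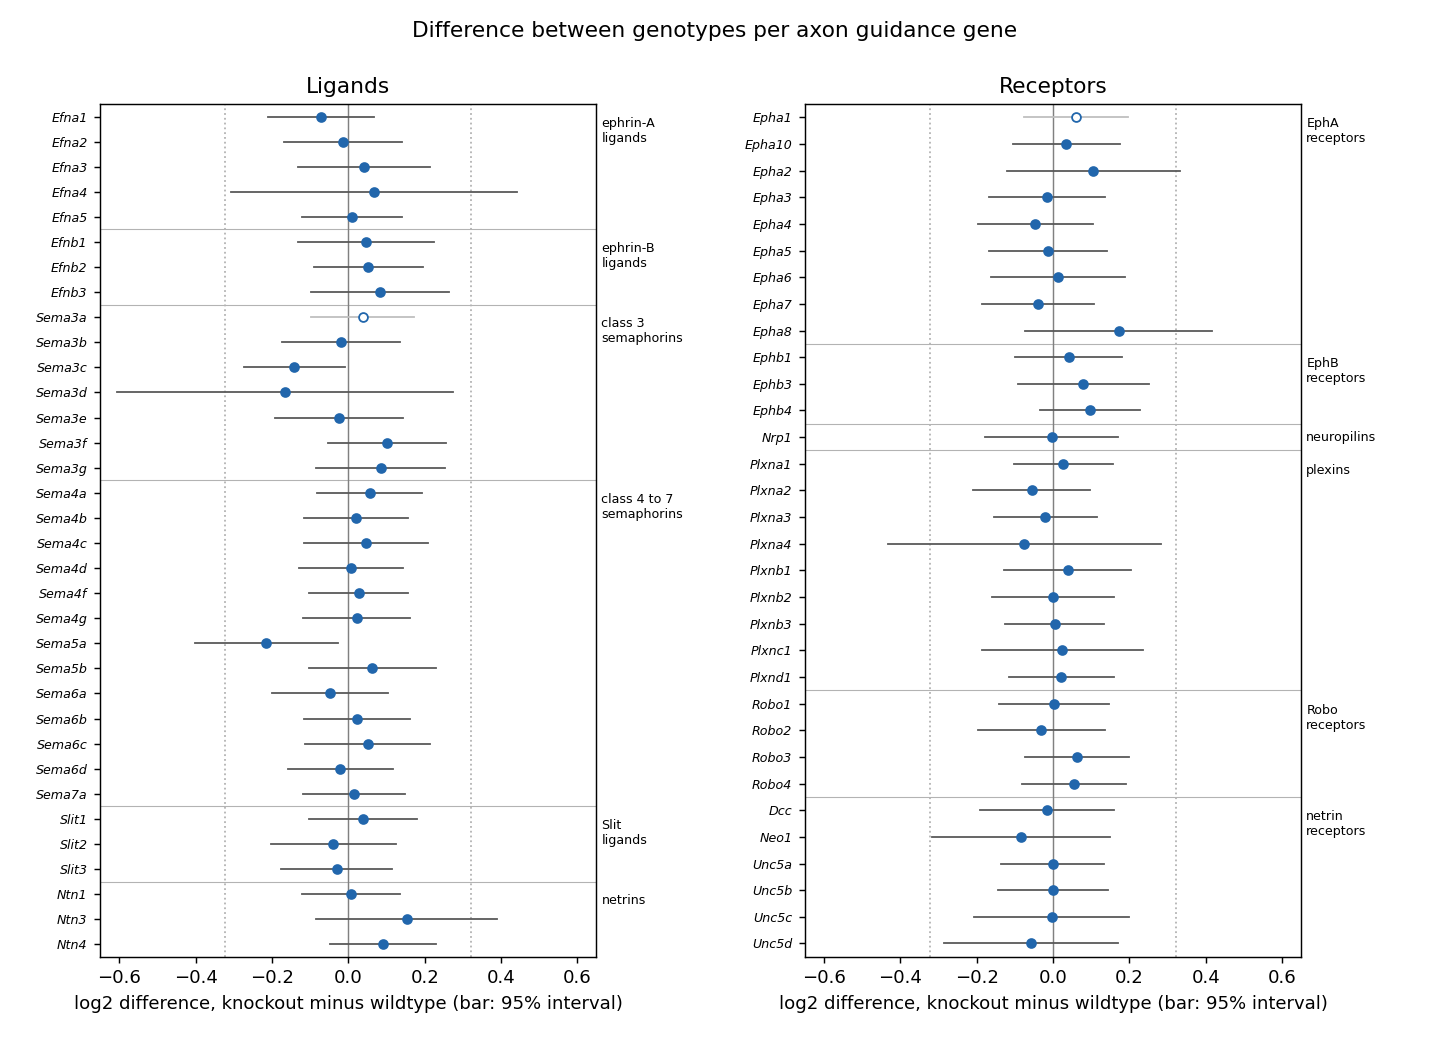
Log2 difference between knockout and wildtype for each axon guidance gene, with bars for the 95% interval from limma (2 arrays per genotype). Open points mark Epha1 and Sema3a, which lay under the filter, and dotted lines mark 1.25-fold. Only the bars of Sema3c and Sema5a leave out 0, and those of Sema3d and Plxna4 are among the widest.

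Some members carry several rows, which need not move together. There were 8 such genes with 11 further rows, 10 of them above the filter. When every row was tested on its own, 4 of the 74 member rows above the filter, from Sema5a, Sema3c, Unc5d and Epha2, had a limma p under 0.05 before adjustment, against 4.02% of all rows, and none had an adjusted p under 1. A second Unc5d row read 6.97 and 6.92 in wildtype and 6.63 and 6.33 in knockout arrays, a difference of -0.47 (95% interval -0.77 to -0.17). Both knockout arrays lay clearly below, whereas the other 2 Unc5d rows stood at -0.06 and 0.0048. A second Epha2 row read 6.02 and 5.76 against 6.13 and 6.38 (0.36, 95% interval 0.0080 to 0.71), in the direction of the brightest Epha2 row at 0.11. The 4 rows of Epha10, a receptor without an active kinase, stood at 0.03, 0.16, 0.01 and -0.20. A second Nrp1 row read 6.84 and 6.71 against 6.67 and 6.35 (-0.27) beside -0.0040 for the brightest. Part of a transcript, a variant or another transcript could lie under each row, and which it is was not tested.

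**Figure D3:**
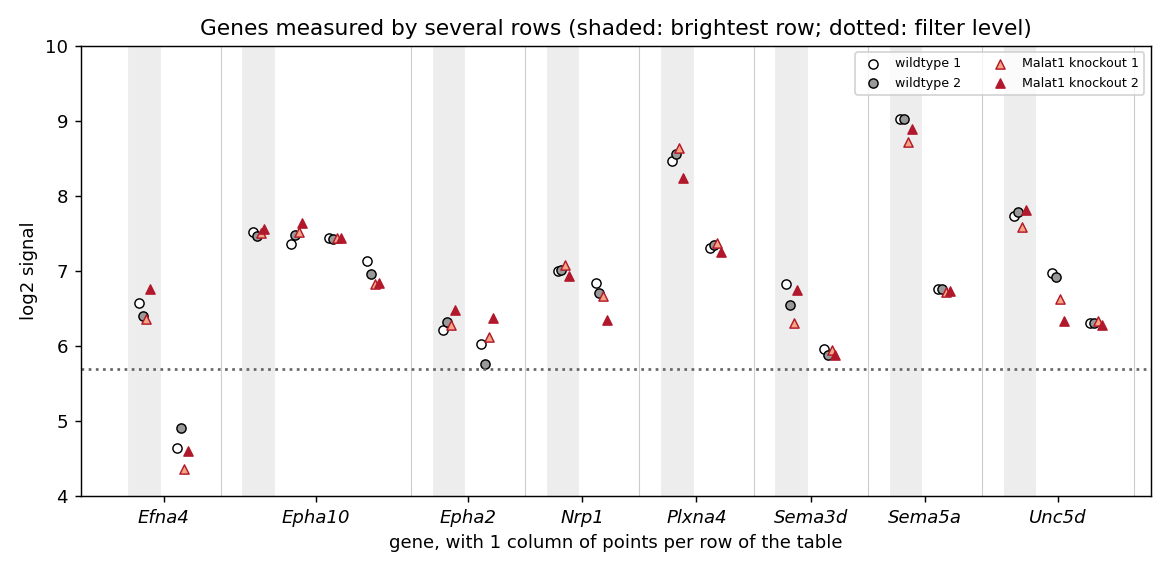
Log2 signal on the 4 arrays for every row of the 8 axon guidance genes with several rows, with the brightest row of each gene shaded and the filter level of 5.70 dotted. The rows of Unc5d and of Sema5a differ in how far the knockout arrays lie from the wildtype arrays.

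The members' small differences were ordered by the length of the gene. Lengths in RefSeq (GRCm38.p6) ran from 4.64 kb for Efna4 to 1555 kb for Robo2, and a split at 50 kb, chosen after the values were seen, put 32 tested members on each side. Of the shorter genes, 27 of 32 stood above 0 with a median difference of 0.044. Of the longer genes, 10 of 32 stood above 0 with a median of -0.016. Over all genes tested, 53.0% of those under 50 kb and 37.4% of the longer ones stood above 0, with medians of 0.0047 and -0.013. The rank correlation (Spearman) between length and difference was -0.57 over the 64 members and -0.13 over 15698 genes with a length, as descriptions across genes that share the same 4 arrays.

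Knockout replicate 2 carried this order. Against the wildtype mean, knockout replicate 2 was higher for 27 of the 32 shorter members (median 0.060) and for 9 of the 32 longer ones (median -0.065). Knockout replicate 1 was higher for 23 of the shorter members (median 0.028) and for 20 of the longer ones (median 0.024). The rank correlation with length was -0.61 for knockout replicate 2 and 0.05 for knockout replicate 1, and both values use the same wildtype arrays. Between the wildtype arrays themselves the median difference, replicate 2 minus replicate 1, was 0.029 for shorter and 0.011 for longer members. Robo2, Dcc, Plxna4, Slit2 and Unc5c are long genes for which knockout replicate 2 read lowest of the 4 arrays. Over all genes, knockout replicate 2 was higher than the wildtype mean for 51.9% of shorter and 31.4% of longer genes. Knockout replicate 1 was higher for 52.7% and 61.3%, the opposite order. The rank correlation with length over all genes was -0.21 for knockout replicate 2 and 0.07 for knockout replicate 1. Among the members the order by length is thus in 1 knockout animal and not in the other. Its relation to genotype cannot be told apart from a property of the array of knockout replicate 2.

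**Figure D4:**
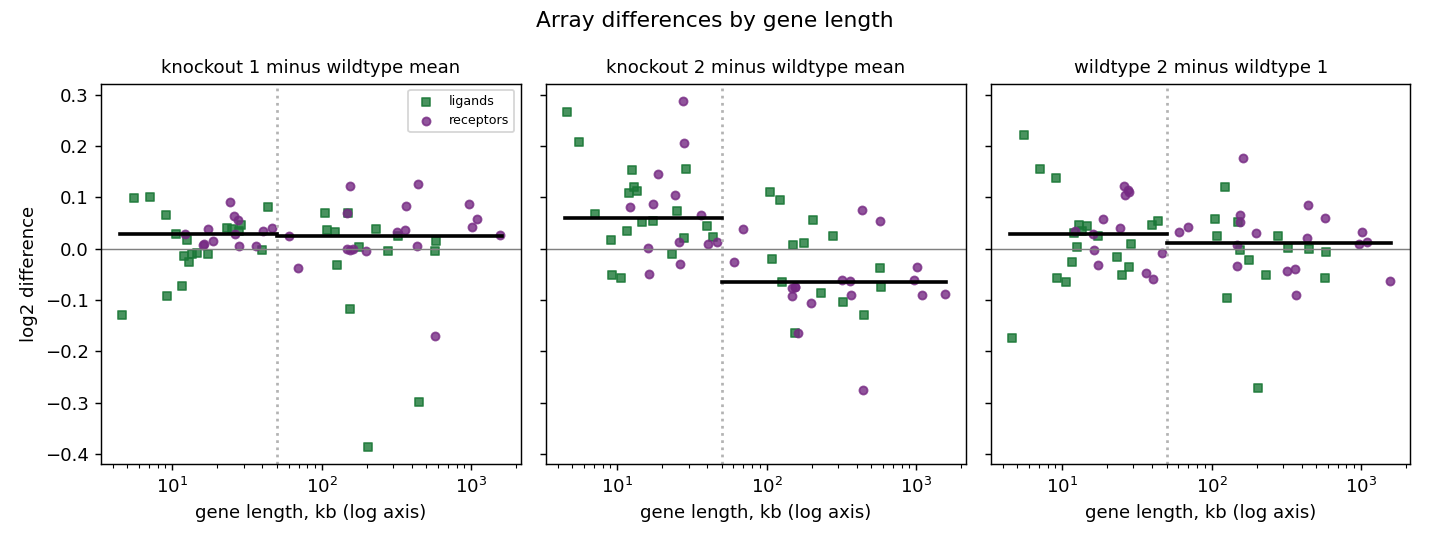
Log2 difference against gene length in kb (log axis) for the 64 tested axon guidance genes, for each knockout array against the wildtype mean and for the 2 wildtype arrays against each other. Thick lines are medians on each side of 50 kb (dotted). They stand at 0.060 and -0.065 for knockout replicate 2 and at 0.028 and 0.024 for knockout replicate 1.

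The spread between the knockout animals was wider than that between the wildtype animals for 46 of the 64 members (71.9%), against 59.0% of all genes tested. The median absolute difference between arrays of a genotype was 0.074 for knockout and 0.044 for wildtype members. Over all genes these medians were 0.081 and 0.057.

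Downstream of the receptors, the list of intracellular effectors holds small GTPases, their exchange factors and activating proteins, kinases, collapsin response mediators and adaptors. Of its 56 genes, 51 had a row and were tested. By limma 0 passed the adjusted threshold and 0 had a p under 0.05 before adjustment. The median difference was -0.01, with 18 above and 33 below 0. Against the wildtype mean it was 0.00031 in knockout replicate 1 and -0.044 in knockout replicate 2, so the lower values lay mainly in the latter. Both knockout arrays lay below both wildtype arrays for 12 of the 51 (23.5%) and above for 2 (3.92%), beside 14.3% and 14.7% of all genes. Among the 12 were Nck1, Cdc42, Rnd1, Pak2 and Dpysl3, whose brightest rows lie among genes of their own chromosome. Nck1 was at 6.34 and 6.31 in wildtype and 6.22 and 6.11 in knockout arrays (-0.16, 95% interval -0.31 to 0.00058). The 12 also held Arhgef12, described below, and Rac1 and Rhoa, which lie on chromosomes 5 and 9. The named rows nearest to the brightest rows of Rac1 and Rhoa carry mostly genes of chromosomes 15 and 4. A dimmer row of each among genes of its own chromosome stood at -0.0035 for Rac1 and -0.06 for Rhoa, with overlapping groups. The adaptor Nck2 was at 7.60 and 8.03 in wildtype and 7.61 and 7.62 in knockout arrays (-0.20, 95% interval -0.57 to 0.18), a difference that rests on wildtype replicate 2. Of the 20 named rows nearest to this one in number, 17 carry genes of chromosome 7, whereas Nck2 lies on chromosome 1, and a dimmer Nck2 row among chromosome 1 genes stood at 0.02. Arhgef12, the exchange factor bound by plexin-B receptors, was at 10.75 and 10.64 against 10.62 and 10.39 (-0.19, -0.43 to 0.06), with both knockout arrays lower. The rows around it carry genes of many chromosomes, and a dimmer Arhgef12 row among genes of its own chromosome stood at -0.02. Whether the brightest rows of Rac1, Rhoa, Nck2 and Arhgef12 measure those genes was not tested.

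Among other cues, co-receptors and adhesion partners, 27 of 30 genes were tested, with a median of -0.03 and 20 below 0. Against the wildtype mean the median was 0.012 in knockout replicate 1 and -0.065 in knockout replicate 2. Met and Cxcr4 lay under the filter and Ntng2 had no row of its own. None passed the adjusted threshold by limma, and 1 (3.70%) had an unadjusted p under 0.05, near the 3.86% of all genes. This was Omg, a myelin-associated ligand of the Nogo receptor, at 7.44 and 7.37 in wildtype and 7.27 and 7.19 in knockout arrays (-0.18, 95% interval -0.33 to -0.03). Flrt1, of the FLRT family of adhesion proteins that includes Unc5 ligands, was at 7.10 and 7.11 against 7.08 and 6.59 (-0.27, -0.69 to 0.15), so that its difference came from knockout replicate 2. A dimmer Flrt1 row read 6.76 and 6.86 against 6.82 and 6.83, a difference of 0.02.

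Markers of cell types in the tissue are given beside these values. The median difference of oligodendrocyte markers was -0.06. Of these 7 markers 6 stood below 0, at mean log2 levels of 7.76 and 7.60 in wildtype and 7.64 and 7.62 in knockout arrays. That of interneuron markers was -0.02. Of these 9 markers 6 stood below 0, at mean levels of 7.90 and 7.89 against 7.82 and 7.82. Of the 9, 2 (22.2%), Gad2 at -0.17 and Htr3a at -0.40, had a limma p under 0.05 before adjustment, against 3.86% of all genes. The Gad2 value is that of its brightest row, and its dimmer rows stood at -0.11 and -0.02. Htr3a read 7.33 and 6.94 in wildtype and 6.71 and 6.76 in knockout arrays. Its wildtype arrays differed by 0.39, the widest spread within a genotype among these markers. The 3 interneuron markers above 0 were Gad1 (0.00025), Pvalb (0.05) and Cck (0.04). Excitatory neuron markers stood at a median of -0.0033 and at mean levels of 8.10 and 8.03 against 8.08 and 8.02. Markers of endothelium and mural cells had a median of -0.04, with 5 of 7 below 0, at mean levels of 6.64 and 6.59 against 6.58 and 6.58. Astrocyte markers stood at a median of 0.07 (3 of 4 above 0) and meningeal markers at 0.08 (2 of 3 above 0). Medians were -0.05 for microglia (3 of 5 below 0), -0.03 for choroid plexus (2 of 3 below 0), 0.0057 for oligodendrocyte precursors (2 of 4 above 0) and 0.02 for adult neurogenesis (3 of 5 above 0). In the choroid plexus list 1 of 3 tested (33.3%), Ttr, had a limma p under 0.05 before adjustment, against 3.86% of all genes. Ttr stood at -0.54 and read 6.09 and 6.58 in wildtype and 5.73 and 5.86 in knockout arrays. Its wildtype arrays differed by 0.50. Folr1 went the other way, at 0.19 with both knockout arrays above both wildtype arrays, and Kl stood at -0.03. The part of such shifts in the differences of the axon guidance genes, Omg and the effectors was not tested.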

How the data were processed

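Hippocampal RNA of 4 mice was measured on exon arrays, with 100 ng of total RNA labelled by a 3' in vitro transcription kit per the labels. The authors deposited log2 expression values, a scale read from the values themselves, as 1 table of 265511 rows. How the authors corrected background, normalized and summarized is not given in the sources used here, and the strand each row reports on is not stated. Per the submitters' processing notes, the genome build was mm9. GEO's platform annotation gave 1 symbol to 27090 rows, several to 2498 and none to 235923.

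Each gene was represented by its row with the highest mean. Genes whose row had a mean below 5.70, the 25th percentile over rows with 1 symbol, were not tested, leaving 15995. Knockout and wildtype were compared on the deposited values with limma 3.58.1 (lmFit and eBayes, two-sided, genotype only, R 4.3.3), with Benjamini-Hochberg adjustment over all genes and a threshold of 0.05. Fold values are folds of array signal, which compress true ratios. Precision is limited by having 2 arrays in each group, and the median half-width of the 95% intervals was 0.16. All 66 members matched RefSeq (GRCm38.p6) by Entrez identifier, used for chromosome, length and promoters.

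Named members are those with an unadjusted p under 0.05 and, per family, the 2 largest absolute differences (3 where over 6 were tested). Others are named for their levels or rows. The members and lists were chosen with earlier results of these data known. Alternatives were a replicate block, quantile and median scaling, other filters, an intensity trend, other row rules and leaving out each array.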

Additional observations from a re-analysis of the deposited data

How the results depend on the processing

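No member passed the adjusted threshold by limma under any of the 13 alternatives. Members with an unadjusted p under 0.05 numbered 2. Under quantile normalization there was 1, Sema3c, and with a filter at the 50th percentile 1, Sema5a. With the mean over rows there were 3, Sema3c, Epha2 and Unc5d, and Sema5a was not among them. Testing every row on its own gave 4 rows. With Sema5a at the row whose neighbours lie on its chromosome, an alternative chosen after seeing the data, there was 1. Leaving out single arrays gave between 0 (wildtype replicate 1 left out) and 3 members (knockout replicate 1 left out). Members with both knockout arrays above both wildtype arrays numbered 9, and 16 under quantile normalization and 3 with the stricter filter. Those below numbered 3, and 7 rows with every row on its own. In the main comparison the matching shares of all genes were 3.86% for an unadjusted limma p under 0.05, 14.7% above and 14.3% below. Under these alternatives only the share for an unadjusted p with every row on its own was counted (4.02%). Whether the other altered counts differ from those of all genes is therefore not known. The median difference of 0.011 was 0.028 under quantile normalization, where the median of all genes was 0.0059. The cause of these changes was not tested, apart from the fewer genes of the stricter filter and the more rows of the single-row test.

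Of 26 named members, 18 kept their direction under all alternatives run for them. The others changed sign under at least 1 of them. Over the fits that leave out 1 array, the lowest and highest differences were -0.13 and 0.26 for Efna4, -0.39 and 0.055 for Sema3d, -0.078 and 0.070 for Nrp1, -0.28 and 0.13 for Plxna4, and -0.023 and 0.10 for Plxnb1. They were -0.10 and 0.024 for Slit2, -0.17 and 0.0045 for Neo1, and -0.17 and 0.054 for Unc5d. The sign of Nrp1, Plxna4 and Slit2 turned without knockout replicate 2, that of Sema3d and Unc5d without knockout replicate 1, that of Plxnb1 without wildtype replicate 1 and that of Neo1 without wildtype replicate 2. Efna4 turned without knockout replicate 2 and without wildtype replicate 2. Under quantile normalization Nrp1 stood at 0.0065.

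The replicate numbers are not stated to mark the littermate pairs, and over 15995 genes the deviations of same-numbered arrays correlated at 0.060. With the replicate block, 2 members had an unadjusted p under 0.05 and 0 passed the adjusted threshold. They were Sema5a and Epha8, so that Epha8 took the place of Sema3c.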
